A study of Homo sapiens with 15 samples.

Results

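Nicotinamide N-methyltransferase (NNMT) and 9 enzymes around it were followed in A549 tumours of restrained and unrestrained mice. The set of 10 human genes was listed by name with earlier results of these tumours known: NNMT, NAMPT, NAPRT, NADSYN1, NMNAT1, QPRT, SIRT1, MAT2A, MAT2B and AHCY. All 10 were found among the 60649 human genes of the count table, and 9 had enough counts to enter the comparisons. The members were selected on their CPM in all 3 groups (defined below), so their levels and fold changes are given as a description. No p-value is given for a member, and where members past a threshold are counted or named, nothing is read from it.

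The tumours came from A549, an established cell line of human lung adenocarcinoma, injected under the skin of BALB/c nude mice. These hosts have no mature T cells but keep other immune cells. Of 15 tumours, 5 were from mice labelled stress, for which restraint is given as 7 days before the cells were transplanted. Another 5 were from mice labelled post-stress, with restraint 12 days after it, and the last 5 were from unrestrained mice, labelled no stress. Whether 7 and 12 are lengths of restraint or starting days is not stated, so the restrained groups may differ in both. Each tumour gave 1 library. Human counts stand for the transplanted cells and mouse counts for the host cells in the tumour piece.

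NNMT methylates nicotinamide, the vitamin B3 amide that NAD-consuming enzymes release. The methyl group comes from S-adenosylmethionine (SAM), so the enzyme draws on the NAD cycle and on the methionine cycle at once, and leaves 1-methylnicotinamide and S-adenosylhomocysteine. NAMPT competes for the same nicotinamide and returns it to NAD through nicotinamide mononucleotide, which NMNAT1 completes in the nucleus. NAPRT with NADSYN1 makes NAD from nicotinic acid, QPRT feeds the same route from tryptophan, and SIRT1 is a deacetylase that spends NAD. MAT2A with its regulatory partner MAT2B makes SAM, and AHCY clears S-adenosylhomocysteine. NNMT is abundant in many carcinomas and in the fibroblasts of tumour stroma.

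Human counts per library ranged from 12877165 to 15892705. Mouse genes took 18.6 to 24.6% of all counts in stress tumours, 12.4 to 23.0% in post-stress tumours and 15.6 to 30.2% in no-stress tumours. The keratins KRT8, KRT18 and KRT7 marked the cells as epithelial, and the summed level of 6 epithelial markers was 5402 to 7004 CPM in stress tumours, 5465 to 6450 CPM in post-stress tumours and 4595 to 6438 CPM in no-stress tumours. CPM are a gene's counts divided by the library's human total in units of 1e6 counts, with totals scaled between libraries by the TMM method. KRT19 was near 0 throughout. The markers of other cell types below are human genes as well, so they are no measure of host cells, which are mouse cells. Some mouse reads of conserved sequence may still sit on them. The 6 fibroblast markers summed to 105 to 167 CPM in stress tumours, 62.3 to 217 CPM in post-stress tumours and 97.3 to 193 CPM in no-stress tumours, most of it COL1A1, while COL1A2 had 3 counts in all 15 libraries. The 6 leukocyte and macrophage markers summed to no more than 8.47 CPM in any library. Of 4 endothelial markers only PECAM1 had enough counts to be tested, and the list stood at 7.34 to 24.7 CPM over all libraries. Of 4 fat cell markers ADIPOQ and LEP had no counts and FABP4 had 3. The list summed to 2.16 to 4.51 CPM in stress tumours, 1.85 to 3.66 CPM in post-stress tumours and 1.30 to 3.01 CPM in no-stress tumours. PLIN1, its only tested gene, rose under stress, with 3.89 ± 0.977 CPM under stress and 1.91 ± 0.677 CPM without stress (adjusted p = 0.0216), and its part in the stress results was not tested.

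NNMT (chromosome 11, 114257787 to 114313285, plus strand, GRCh38) was higher in both restrained groups than without restraint. It stood at 369, 478, 343, 365 and 449.9 CPM in the 5 stress tumours, at 395, 478, 429, 392 and 423 CPM in the 5 post-stress tumours, and at 243, 260.1, 230.4, 271 and 281 CPM in the 5 no-stress tumours. Every tumour of either restrained group lay above every no-stress tumour, and the restrained groups overlapped each other. The means were 401 ± 59.1 CPM under stress, 423 ± 34.5 CPM under post-stress and 257 ± 20.7 CPM without stress (SD, n = 5 each). This is a 1.56-fold difference for stress against no stress (log2 fold change 0.64, SE 0.10) and a 1.65-fold difference for post-stress against no stress (log2 fold change 0.72, SE 0.10). Stress against post-stress gave a log2 fold change of −0.08 (SE 0.10). Groups that did not overlap, with the restrained group higher, were found for 4.09% of all tested genes in the first of these comparisons and for 1.57% in the second, and both comparisons share their no-stress tumours.

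In bulk tumour RNA, more cells with a transcript and more transcript per cell cannot be told apart. With the mouse share of each library as a covariate the log2 fold change was 0.64 for stress and 0.73 for post-stress. Without no-stress replicates 1 and 5, which had the highest mouse shares, it was 0.66 for stress and 0.74 for post-stress. Over the 15 fits that each left out 1 library it lay between 0.58 and 0.70 for stress and between 0.68 and 0.76 for post-stress. The fibroblast marker sums given above overlapped between all 3 groups. They are sums of human genes and are no measure of host fibroblasts, which are mouse cells. Mouse reads of conserved sequence may still sit on these genes and on NNMT, since the handling of reads matching both species is not given. Within that list DCN, the stromal proteoglycan decorin, averaged 22.9 ± 15.5 CPM under stress, 14.7 ± 5.46 CPM under post-stress and 8.36 ± 6.42 CPM without stress (adjusted p = 0.143 for stress and 0.565 for post-stress), and its part in the NNMT difference was not tested.

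**Figure D1:**
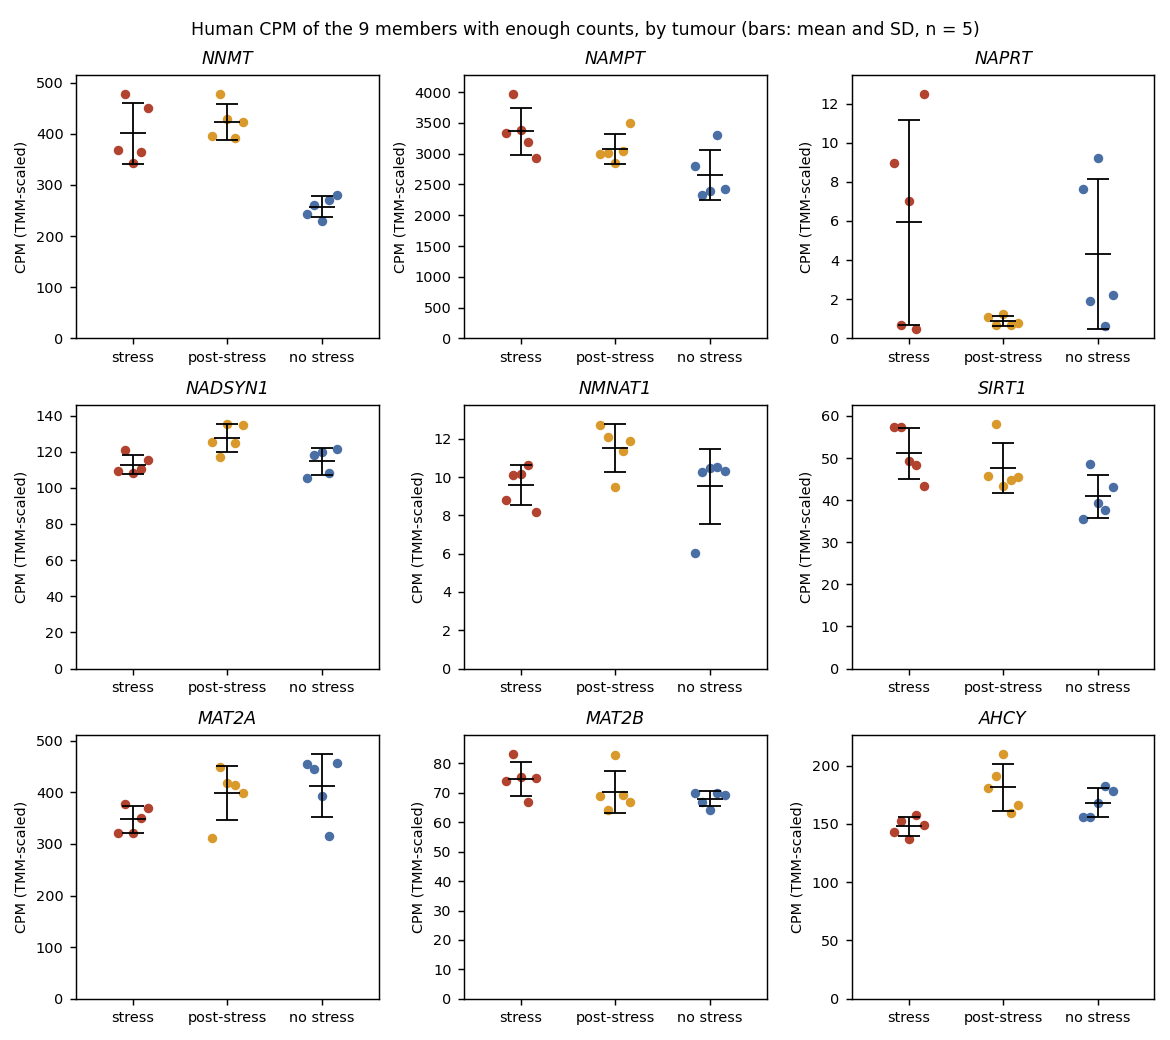
Each panel plots 1 gene, with TMM-scaled human CPM on the vertical axis from 0 and the groups stress, post-stress and no stress on the horizontal axis; points are the 5 tumours of a group and bars the mean and SD. NNMT separates both restrained groups from the no-stress tumours (343 to 478 and 392 to 478 against 230.4 to 281 CPM), while NAPRT is scattered in the stress and no-stress groups and low in all post-stress tumours.

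Among the 9 tested members, NNMT alone passed an adjusted p of 0.05 for stress against no stress, where 10.5% of all 15435 tested human genes passed (edgeR quasi-likelihood test, Benjamini-Hochberg adjustment). NNMT was again the only member past it for post-stress against no stress, where 0.842% of all genes passed. No member passed for stress against post-stress, where 0.0389% of all genes passed. In that comparison 3 members had an unadjusted p under 0.05 by edgeR, and DESeq2's Wald test called 1 member, AHCY. Nothing is read from these counts, since the values compared also guided the choice of members. The median log2 fold change of the 9 members was 0.14 for stress and 0.15 for post-stress over no stress, and −0.08 for stress over post-stress, beside −0.01, −0.01 and 0.00 for all tested genes.

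**Figure D2:**
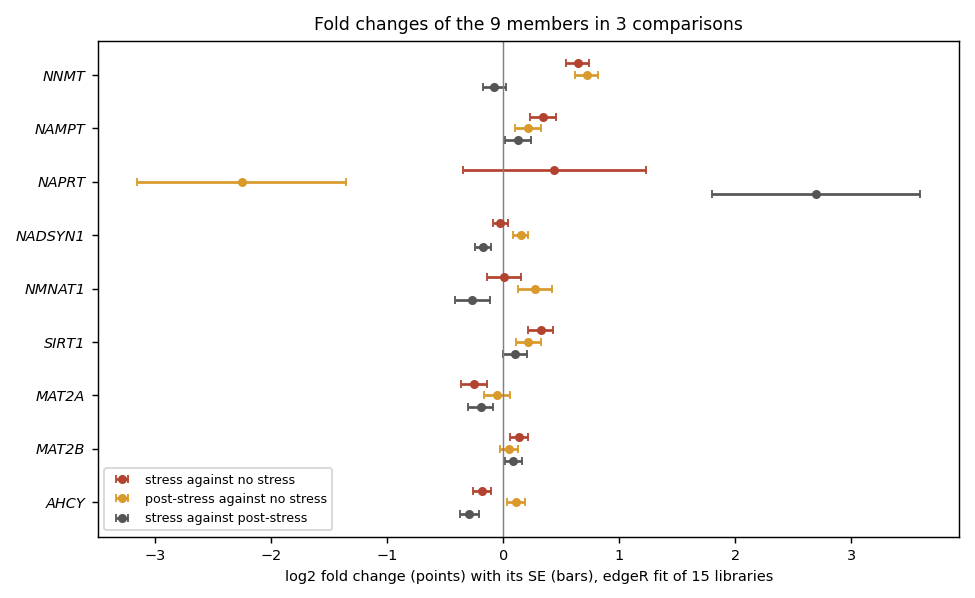
The plot gives the log2 fold change of each tested member on the horizontal axis (points) with its SE (bars) in the 3 comparisons of groups. NNMT is at 0.64 and 0.72 in the comparisons with no stress, and NAPRT has by far the widest bars, with SEs of 0.79 to 0.90.

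NAMPT (chromosome 7, 106248285 to 106286326, minus strand), the rate-limiting enzyme that recycles nicotinamide, was the most abundant member. It stood at 3330.1, 3969, 3388, 3189 and 2934 CPM in stress tumours, at 2989, 3005, 2844, 3038 and 3501 CPM in post-stress tumours, and at 2797, 2327, 2398, 3309 and 2433 CPM in no-stress tumours. Of the 5 stress tumours 3 lay above every no-stress tumour, and the groups overlapped because no-stress replicate 4 was high. The log2 fold change was 0.34 (SE 0.11) for stress and 0.21 (SE 0.11) for post-stress against no stress. The table also held 32681 counts on NAMPTP1, a processed copy of NAMPT, beside 649335 on NAMPT itself, so that reads of the copies cannot be fully separated and the NAMPT level is uncertain to that extent.

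SIRT1 (chromosome 10, 67884669 to 67918390, plus strand), the best known nuclear sirtuin, stood at 57.3, 57.3, 49.3, 48.3 and 43.4 CPM in stress tumours. It was at 45.8, 58.0, 43.5, 44.9 and 45.5 CPM in post-stress tumours and at 35.6, 48.7, 39.3, 37.7 and 43.1 CPM in no-stress tumours. The groups overlapped, with 3 stress tumours above every no-stress tumour and post-stress replicate 2 apart from its group. Its log2 fold change was 0.32 (SE 0.10) for stress and 0.22 (SE 0.11) for post-stress, close to the values of NAMPT.

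NAMPT and SIRT1 were the members after NNMT whose means were higher in both restrained groups by more than 0.2 on the log2 scale. Their promoters are shown for that reason, as the 250 bases before the RefSeq start (GRCh38.p14), 5′ to 3′ on the gene's strand. Capitals mark CACGTG, the E-box bound by clock and MYC-type factors. Its inner ACGTG is also a form of the core of the site of the hypoxia factors. That core can also read GCGTG, which was not searched, so a window without ACGTG may still hold it.
NAMPT, chr7:106284984-106285233, minus strand: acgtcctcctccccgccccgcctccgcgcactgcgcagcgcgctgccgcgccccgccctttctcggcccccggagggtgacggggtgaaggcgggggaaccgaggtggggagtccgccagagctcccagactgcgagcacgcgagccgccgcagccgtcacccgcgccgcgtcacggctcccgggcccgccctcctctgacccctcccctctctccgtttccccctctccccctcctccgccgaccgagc
SIRT1, chr10:67884406-67884655, plus strand: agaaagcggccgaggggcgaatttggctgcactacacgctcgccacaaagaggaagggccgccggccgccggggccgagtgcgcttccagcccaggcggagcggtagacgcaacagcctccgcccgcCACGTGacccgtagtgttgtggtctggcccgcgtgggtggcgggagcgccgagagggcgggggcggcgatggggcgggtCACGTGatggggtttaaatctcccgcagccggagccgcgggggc
The SIRT1 window held CACGTG 2 times and the NAMPT window held no ACGTG on either strand. CACGTG reads the same on both strands, and each match contains ACGTG once per strand. Of all 35116 RefSeq windows of this length, 6.3% held CACGTG and 18.5% held ACGTG on either strand. Among the 8 members with a window in the table, only NADSYN1 besides SIRT1 held an ACGTG. NNMT and NAPRT had no window in it. These matches are letters in a window and not measured sites.

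NMNAT1, the nuclear enzyme that turns nicotinamide mononucleotide into NAD, was low. It ranged from 8.18 to 10.6 CPM in stress tumours, from 9.47 to 12.7 CPM in post-stress tumours and from 6.04 to 10.5 CPM in no-stress tumours. Of the post-stress tumours 4 lay above every no-stress tumour (log2 fold change 0.27, SE 0.15), and for stress the value was 0.01 (SE 0.15). Its cytosolic isoenzyme NMNAT2 stood at 8.97 ± 2.22 CPM under stress, 8.39 ± 3.51 CPM under post-stress and 12.4 ± 5.02 CPM without stress, and did not pass in either comparison with no stress (adjusted p = 0.375 and 0.423). The mitochondrial NMNAT3 had 115 counts over all 15 libraries and was not tested.

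NAPRT (chromosome 8), the entry enzyme for nicotinic acid, was low and uneven between tumours of the stress and no-stress groups. It stood at 8.96, 0.697, 7.00, 0.473 and 12.5 CPM in stress tumours, at 1.11, 0.684, 1.26, 0.687 and 0.784 CPM in post-stress tumours, and at 7.66, 1.93, 9.23, 0.645 and 2.23 CPM in no-stress tumours. Of the tumours, 3 under stress and 2 without stress had 7 CPM or more, whereas no post-stress tumour exceeded 1.26 CPM. The coefficient of variation was 88.7% under stress, 29.2% under post-stress and 88.4% without stress, against 3.77 to 20.5% for the other 8 tested members in any group. With that spread the log2 fold changes of 0.44 (SE 0.79) for stress and −2.25 (SE 0.90) for post-stress against no stress, and of 2.69 (SE 0.90) for stress against post-stress, left all groups overlapping.

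NADSYN1, which finishes NAD in the nicotinic acid and tryptophan routes, varied little, with a coefficient of variation of 4.57 to 6.45% within groups. It ranged from 108 to 121 CPM in stress tumours, from 117 to 135 CPM in post-stress tumours and from 105 to 122 CPM in no-stress tumours. Of the post-stress tumours 4 lay above every no-stress tumour, with a log2 fold change of 0.15 (SE 0.07), and stress gave −0.02 (SE 0.07). QPRT, which commits the tryptophan product quinolinate to NAD, had 5 counts over all 15 libraries and was not tested. GENCODE 29 places another protein-coding gene over QPRT on the same strand. The count table held no row under that gene's identifier, so a loss of QPRT reads to it is not shown.

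MAT2A (chromosome 2, 85539165 to 85545280, plus strand), the SAM synthetase of dividing cells, stood at 321, 377, 321, 350.0 and 369 CPM in stress tumours. It was at 311, 448, 418, 415 and 398 CPM in post-stress tumours and at 454, 445, 393, 315 and 457 CPM in no-stress tumours. No-stress replicate 4 lay below every stress tumour, while 4 of the 5 no-stress tumours lay above all of them. The log2 fold change was −0.25 (SE 0.11) for stress and −0.05 (SE 0.11) for post-stress. GGCX runs over MAT2A on the other strand with 11048 counts beside 82904, and without stated strandedness reads in the overlap cannot be assigned.

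MAT2B, the regulatory subunit, ranged from 66.7 to 83.0 CPM in stress tumours, from 64.1 to 82.7 CPM in post-stress tumours and from 64.0 to 70.1 CPM in no-stress tumours. Of the stress tumours 4 lay above every no-stress tumour (log2 fold change 0.14, SE 0.08), in the direction opposite to MAT2A. AHCY, the hydrolase that removes the inhibitory product of all SAM-dependent methylation, stood at 143, 152, 137, 158 and 149 CPM in stress tumours. Post-stress tumours had 180.4, 191, 209, 159 and 166 CPM, and no-stress tumours had 156, 156, 168, 182 and 178 CPM. Every stress tumour lay below every post-stress tumour, a pattern found for 0.752% of all tested genes, and 4 stress tumours lay below every no-stress tumour. The log2 fold change of AHCY was −0.29 (SE 0.08) for stress against post-stress, −0.18 (SE 0.08) for stress against no stress and 0.11 (SE 0.08) for post-stress against no stress.

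Levels per length put NNMT second among the members. The length merges all annotated exons and can exceed that of a transcript. It was 16263 bp for NADSYN1, and 4487 bp for MAT2A, whose longest coding transcript has 2819 bases. The order and the shares below may depend on this choice. Mean CPM per kb of merged exon over all 15 tumours was 335 for NAMPT, 123 for NNMT, 86.0 for MAT2A, 42.6 for AHCY, 13.8 for MAT2B, 10.2 for SIRT1, 7.28 for NADSYN1, 2.21 for NMNAT1 and 1.21 for NAPRT. NAMPT exceeded 99.3% and NNMT 98.1% of the tested genes on this scale, whereas NMNAT1 exceeded 36.6% and NAPRT 25.4%. The order of NNMT and MAT2A depended on the group, with 137 and 77.4 CPM per kb under stress, 145 and 88.7 under post-stress, and 88.1 and 92.0 without stress, where the spreads of both genes overlapped. The liver isoenzyme MAT1A was at 5.68 CPM per kb over all tumours. Of the AHCY-like proteins, which bind other partners, AHCYL1 was at 30.4 and AHCYL2 at 4.17 CPM per kb.

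**Figure D3:**
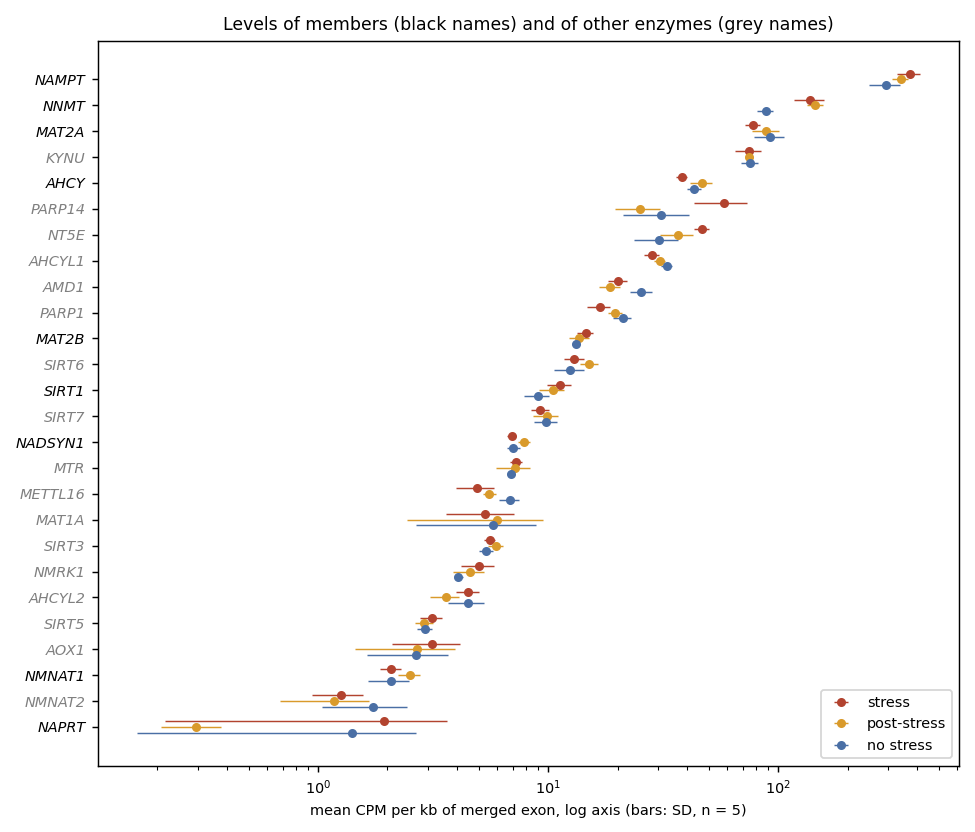
The plot orders members (black names) and other enzymes (grey names) by CPM per kb of merged exon on a logarithmic horizontal axis; points are the means of stress, post-stress and no-stress tumours and bars the SD (n = 5 each). Averaged over all tumours, the members run from NAPRT at 1.21 to NAMPT at 335 CPM per kb, and NNMT in the no-stress group falls next to MAT2A.

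The members did not all follow NNMT. Over the 15 tumours the Pearson correlation of log2 CPM with NNMT was 0.64 for SIRT1, 0.62 for NAMPT, 0.42 for MAT2B and 0.40 for NADSYN1. It was 0.33 for NMNAT1, 0.09 for AHCY, −0.15 for MAT2A and −0.37 for NAPRT. After the group means were removed, these were 0.31, 0.19, 0.32, 0.28, 0.03, 0.44, 0.39 and −0.33, in the same order. The points share libraries and scaling, and both restrained groups differ from the no-stress group in NNMT itself. Removing the group means lowered the values for SIRT1, NAMPT, MAT2B, NADSYN1 and NMNAT1 and raised that for AHCY. It left the value for NAPRT nearly as it was and turned the sign of that for MAT2A.

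The 5 genes whose log2 CPM followed NNMT most closely over the 15 tumours, among 12518 genes with a mean log2 CPM of at least 1, were CRIP1, KLHL24, TRIB1, FKBP5 and SLC45A1. Their correlations with NNMT ran from 0.89 to 0.92, and from 0.53 to 0.71 after the group means were removed. KLHL24, a substrate receptor of a ubiquitin ligase, averaged 34.3 ± 2.75 CPM under stress, 33.6 ± 5.59 CPM under post-stress and 21.2 ± 2.58 CPM without stress. TRIB1, a pseudokinase, averaged 81.9 ± 11.8 CPM under stress, 80.1 ± 13.3 CPM under post-stress and 50.2 ± 8.88 CPM without stress. FKBP5, the co-chaperone of the glucocorticoid receptor that its ligand induces, averaged 214 ± 87.7 CPM under stress, 273 ± 99.4 CPM under post-stress and 101 ± 13.6 CPM without stress. The sugar transporter gene SLC45A1 averaged 6.83 ± 1.06 CPM under stress, 5.94 ± 1.75 CPM under post-stress and 2.31 ± 0.666 CPM without stress. The LIM-domain gene CRIP1 was low, at 3.75 ± 0.710 CPM under stress, 3.69 ± 0.316 CPM under post-stress and 2.26 ± 0.341 CPM without stress. They were ranked on these same values and are a description.

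The other genes of NAD and methyl metabolism were taken from 8 lists of 129 genes in all, of which 105 had enough counts to be tested. The lists were drawn up with earlier results of these tumours known, so the counts of called genes are given as a description. For stress against no stress 8 rose, 17 fell and 80 did not pass, so that 23.8% were called beside 10.5% of all genes. Their median log2 fold change was −0.07, beside −0.01 for all genes. For post-stress against no stress 1 gene fell and none rose, or 0.952% beside 0.842% of all genes, while 21 had an unadjusted p under 0.05 and DESeq2's Wald test called 3. The count of 25 for stress depended on single tumours. It was 9, 14, 12 and 12 without stress replicates 1, 2, 3 and 5, and 10, 13 and 15 without no-stress replicates 1, 3 and 4. It was 5 without no-stress replicates 1 and 5 together.

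**Figure D4:**
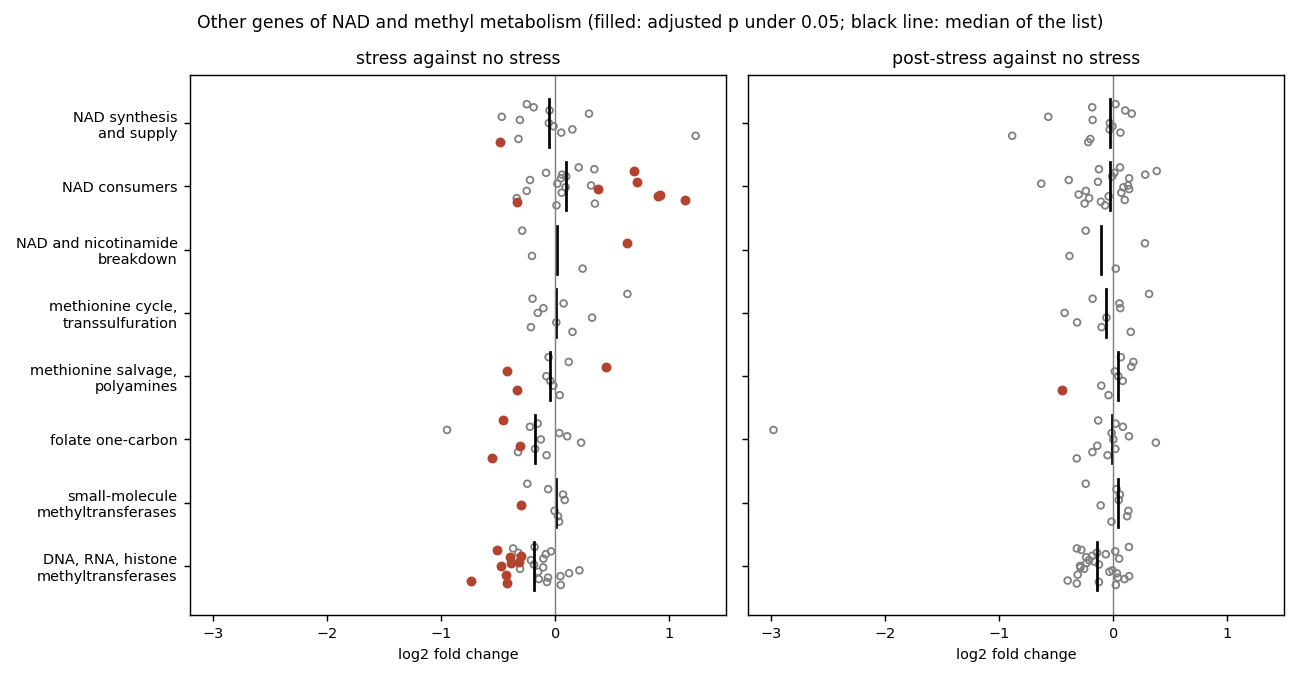
Each point is 1 of the 105 tested genes of the 8 lists, with its log2 fold change on the horizontal axis, for stress against no stress on the left and post-stress against no stress on the right; filled points passed an adjusted p of 0.05 and black lines are list medians. The left panel holds 25 filled points, 9 of them among the methyltransferases of DNA, RNA and histones, and the right panel 1.

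Among enzymes that spend NAD, 6 of 22 tested genes rose under stress, 1 fell and 15 did not pass (median log2 fold change 0.09). This was 31.8% called, beside 10.5% of all tested genes. TIPARP, a mono-ADP-ribosyltransferase induced by the aryl hydrocarbon receptor, had 63.9, 74.5, 64.6, 60.3 and 66.0 CPM in stress tumours, against 42.7, 37.9, 44.7, 35.4 and 43.8 CPM in no-stress tumours. All stress tumours lay above all no-stress tumours (1.61-fold, adjusted p = 0.00799). PARP3, a DNA-repair member of the family, averaged 34.8 ± 2.59 CPM under stress and 26.8 ± 3.39 CPM without stress (1.30-fold, adjusted p = 0.0167). PARP14, an interferon-related ADP-ribosyltransferase, had 712, 651, 714, 333 and 645 CPM in stress tumours, against 256, 489.6, 223, 335 and 317 CPM in no-stress tumours (1.88-fold, adjusted p = 0.0273). Of the stress tumours 4 were above every no-stress tumour and replicate 4 was not. PARP9, PARP10 and PARP12, known interferon-stimulated genes, rose by 0.72, 1.14 and 0.90 on the log2 scale (adjusted p = 0.0370, 0.0398 and 0.0340). ISG15, a standard interferon-stimulated gene, stood at 589 ± 250 CPM under stress, 195 ± 44.5 CPM under post-stress and 185 ± 87.9 CPM without stress. Stress replicate 4 had 183 CPM, within the no-stress range of 78.4 to 308 CPM, against 521 to 804 CPM in the other stress tumours. The part of ISG15 in these results was not tested.

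PARP1, which senses DNA breaks and spends NAD on them, fell. It had 112, 118, 106, 142 and 122 CPM in stress tumours, against 160.1, 142, 149.7, 169 and 135 CPM in no-stress tumours (0.793-fold, adjusted p = 0.0223). The PARP1 call ended without stress replicate 1 or 3, without no-stress replicate 1 or 4, and when no-stress replicates 1 and 5 were both left out. The count of 7 changed NAD consumers was 2, 3, 2 and 3 without stress replicates 1, 2, 3 and 5, and 2, 3 and 3 without no-stress replicates 1, 3 and 4. It was 1 without no-stress replicates 1 and 5 together and 3 with the replicate number as a block. Leaving out single tumours never ended the calls of TIPARP and PARP3, though that of PARP3 ended without no-stress replicates 1 and 5 together, and ended those of PARP14, PARP12, PARP9 and PARP10 in 6, 7, 8 and 10 of 15 fits. None of the 22 passed for post-stress against no stress, where 2 had an unadjusted p under 0.05 and DESeq2's Wald test called 0.

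The other sirtuins showed no call. SIRT3, the main mitochondrial deacetylase, averaged 28.9 ± 1.53 CPM under stress, 30.8 ± 2.16 CPM under post-stress and 27.9 ± 1.91 CPM without stress. SIRT5 averaged 20.3 ± 2.19 CPM under stress, 18.8 ± 1.64 CPM under post-stress and 19.0 ± 1.40 CPM without stress. SIRT7, the nucleolar sirtuin, averaged 56.9 ± 4.91 CPM under stress, 60.5 ± 7.58 CPM under post-stress and 60.1 ± 6.95 CPM without stress. SIRT6, a chromatin deacetylase, averaged 36.2 ± 3.64 CPM under stress, 42.1 ± 3.90 CPM under post-stress and 34.7 ± 5.05 CPM without stress (adjusted p = 0.758 for stress and 0.197 for post-stress). SIRT4 had 109 counts and SIRT2 had 1 count over all libraries, and neither was tested. Whether SIRT2 shares reads with an overlapping gene was not checked, so the count does not show that its transcript is absent. Per length, SIRT6 was at 13.5, SIRT1 at 10.2, SIRT7 at 9.62, SIRT3 at 5.62 and SIRT5 at 2.97 CPM per kb.

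Of 13 tested genes of NAD synthesis and supply, 4 had an unadjusted p under 0.05 for stress against no stress. After adjustment 1 gene fell under stress and none rose, or 7.69% called beside 10.5% of all tested genes. It was AADAT, an aminotransferase of the kynurenine pathway, at 7.54 ± 0.881 CPM under stress and 10.5 ± 0.574 CPM without stress (0.717-fold, adjusted p = 0.0224), a call that ended without stress replicate 1, 2 or 3, without no-stress replicate 3, without no-stress replicates 1 and 5 together, without the filter on low counts and with the replicate number as a block. Of 4 tested genes of NAD and nicotinamide breakdown, NT5E rose under stress, or 25% called beside 10.5% of all tested genes. NT5E encodes CD73, the surface enzyme that cleaves nicotinamide mononucleotide and AMP, and had 215, 232, 204, 190.4 and 213 CPM in stress tumours, against 112, 188, 132, 118 and 134 CPM in no-stress tumours. The groups did not overlap (1.54-fold, adjusted p = 0.00773), and in post-stress tumours the mean was 166 ± 27.5 CPM (adjusted p = 0.319 against no stress). The NT5E call ended without no-stress replicates 1 and 5 together. AOX1, which oxidises the 1-methylnicotinamide that NNMT makes, averaged 17.3 ± 5.73 CPM under stress, 14.9 ± 6.87 CPM under post-stress and 14.7 ± 5.69 CPM without stress (adjusted p = 0.700 and 0.984).

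On the methyl side, none of the 9 other tested genes of the methionine cycle and transsulfuration passed in the edgeR fit. For stress 1 had an unadjusted p under 0.05 and DESeq2's Wald test called 1, and for post-stress these counts were 2 and 0. AHCYL1 averaged 144 ± 11.4 CPM under stress, 156 ± 8.10 CPM under post-stress and 167 ± 9.56 CPM without stress (adjusted p = 0.0610 for stress). AHCYL2 averaged 30.8 ± 3.49 CPM under stress, 24.5 ± 3.53 CPM under post-stress and 30.6 ± 5.37 CPM without stress. MAT1A averaged 19.7 ± 6.44 CPM under stress, 22.1 ± 13.1 CPM under post-stress and 21.2 ± 11.3 CPM without stress.

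The genes of methionine salvage and polyamine metabolism changed in part. Of 9 tested genes of methionine salvage and polyamine metabolism 1 rose and 2 fell under stress, and 1 fell under post-stress. This was 33.3% called for stress, beside 10.5% of all tested genes, and 11.1% for post-stress, beside 0.842%. AMD1, which decarboxylates SAM for polyamine synthesis, had 134, 161, 128, 151 and 134 CPM in stress tumours. It had 115, 121, 149.6, 133 and 134 CPM in post-stress tumours and 202, 161, 188, 185 and 157 CPM in no-stress tumours. It fell in both restrained groups, to 0.793-fold under stress (adjusted p = 0.0284) and 0.731-fold under post-stress (adjusted p = 0.0275), and all post-stress tumours lay below all no-stress tumours, as in 1.89% of all genes. ODC1, the other rate-limiting polyamine enzyme, fell under stress to 0.746-fold (adjusted p = 0.0253), and SAT1, which acetylates polyamines for breakdown and export, rose 1.36-fold (adjusted p = 0.0401). These calls rested on few tumours. Leaving out single tumours ended the stress calls of ODC1, AMD1 and SAT1 in 5, 6 and 6 of 15 fits, and that of SAT1 also ended with the mouse share as a covariate and with plain library sizes. The count of 3 under stress was 0 without stress replicate 3 or 5 and 1 without stress replicate 1 or no-stress replicate 1, 2, 3 or 4. It was 2 when stress replicate 2 was left out, and 1 when no-stress replicates 1 and 5 were both left out. Under post-stress the call of AMD1 ended without post-stress replicate 1 or 2 or no-stress replicate 1, 3 or 4, and with the mouse share as a covariate, the replicate number as a block or the compared groups alone. MTAP, the salvage enzyme that A549 cells lack through a deletion known in this line, had 152 counts over all libraries and was not tested.

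Of 13 tested genes of folate one-carbon metabolism, which supplies methyl groups for methionine, 3 fell under stress and none rose. This was 23.1% called, beside 10.5% of all tested genes. MTHFD1 averaged 95.8 ± 4.24 CPM under stress and 119 ± 8.60 CPM without stress (0.807-fold, adjusted p = 0.00958). TYMS, the thymidylate synthase, averaged 13.9 ± 1.80 CPM under stress and 19.1 ± 3.40 CPM without stress (0.728-fold, adjusted p = 0.0239). The TYMS call ended without stress replicate 1, 2 or 5, without no-stress replicate 1 or 3, when no-stress replicates 1 and 5 were both left out, and with the replicate number as a block. The list median was −0.18.

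Methyltransferases of DNA, RNA and histones, the main users of SAM in the nucleus, had 9 of 27 tested genes lower under stress and none higher (median log2 fold change −0.19). This was 33.3% called, beside 10.5% of all tested genes. The histone methyltransferase SUV39H1 averaged 10.8 ± 0.516 CPM under stress and 15.4 ± 2.05 CPM without stress (0.703-fold, adjusted p = 0.00794). PRMT3, an arginine methyltransferase of a ribosomal protein, averaged 44.1 ± 3.42 CPM under stress and 58.0 ± 2.35 CPM without stress (0.761-fold, adjusted p = 0.0119). METTL16 had 42.3, 38.8, 50.6, 53.1 and 33.7 CPM in stress tumours, against 67.3, 62.5, 64.1, 56.3 and 52.9 CPM in no-stress tumours (0.721-fold, adjusted p = 0.0128). Stress replicate 4 stood just above no-stress replicate 5, and the other 4 stress tumours lay below every no-stress tumour. NSD2, a histone methyltransferase, averaged 82.6 ± 5.93 CPM under stress and 103 ± 12.5 CPM without stress (0.802-fold, adjusted p = 0.0187). The calls of SUV39H1 and PRMT3 ended when no-stress replicates 1 and 5 were both left out, and that of NSD2 also without stress replicate 1, without no-stress replicate 1 and with the replicate number as a block. The other 5 were the DNA methyltransferases DNMT1 and DNMT3B, EZH2, NSD1 and PRMT5, with adjusted p from 0.0234 to 0.0478.

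The proliferation marker MKI67 stood at 120.4 ± 19.2 CPM under stress, 142 ± 25.9 CPM under post-stress and 179.5 ± 38.5 CPM without stress, and its part in the folate and methyltransferase results was not tested. The count of 9 methyltransferases was 3, 4 and 5 without stress replicates 1, 2 and 5, and 3 without no-stress replicate 1. It was 1 without no-stress replicates 1 and 5 together and 5 with the replicate number as a block. Under post-stress none of the 27 passed, while 9 had an unadjusted p under 0.05 and DESeq2's Wald test called 0. Of 8 tested methyltransferases of small molecules and protein repair, ICMT, which methylates prenylated proteins, fell under stress to 0.814-fold (adjusted p = 0.0299), and this no longer passed in 6 of 15 fits that left out a tumour. It was the only call of that list, or 12.5% beside 10.5% of all tested genes.

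METTL16 acts on a member. It is known to methylate hairpins in the MAT2A transcript and to raise its splicing and stability when SAM is scarce. The sites are shown because the enzyme fell under stress while MAT2A had a log2 fold change of −0.25 that did not pass. The groups overlapped for MAT2A, and the part of METTL16 in its level was not tested. The motif TACAGAGAA (given as DNA) was searched on the transcript strand of the longest coding MAT2A transcript of GENCODE 29 (2819 bases), where it occurs 5 times, always in the 3′ untranslated region. Capitals mark it, with 9 bases on either side, plus strand, GRCh38.
Site at chr2:85543803-85543829: ggcgtaggcTACAGAGAAgccttcaag
Site at chr2:85544590-85544616: gtgatgtcaTACAGAGAAgtcacaggg
Site at chr2:85544775-85544801: tggtgtagcTACAGAGAAaccagcttc
Site at chr2:85544890-85544916: tggcgtaagTACAGAGAAgccatcacc
Site at chr2:85545113-85545139: ctggtgtggTACAGAGAAgccagcttg
Of the longest coding transcripts of 19684 genes, 3.27% held the motif at least once, and 2 genes, MAT2A among them, held it 5 times or more. A match describes the sequence and is no measurement of methylation.

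**Figure D5:**
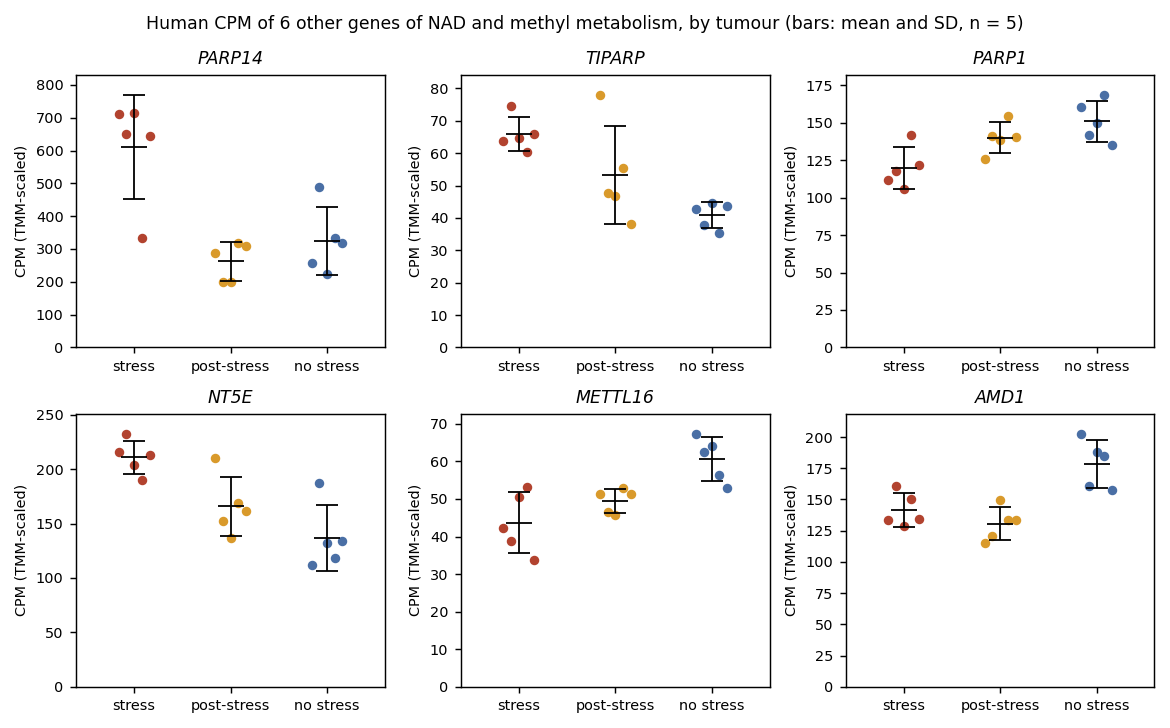
Each panel plots TMM-scaled human CPM from 0 for 1 gene outside the set of members in stress, post-stress and no-stress tumours; points are tumours and bars the mean and SD (n = 5). TIPARP and NT5E are higher in every stress tumour than in any no-stress tumour, AMD1 is lower in every post-stress tumour than in any no-stress tumour, and PARP14 shows 1 stress tumour at 333 CPM apart from 645 to 714 CPM in the other 4.

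The restrained groups were also set against each other. None of the 105 other genes passed in the edgeR fit, while 22 had an unadjusted p under 0.05 and DESeq2's Wald test called 5. PARP14 averaged 611 ± 159 CPM under stress and 263 ± 58.9 CPM under post-stress (log2 fold change 1.22, SE 0.24, adjusted p = 0.0905). Without stress replicate 4, 6 of the 105 passed, with 5 higher and 1 lower under stress.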

How the data were processed

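Raw counts per gene were deposited for 15 libraries, covering 60649 human and 56941 mouse genes. The authors made the counts, per the submitters' processing notes, with Trimmomatic (0.39), HISAT2 (2.2.1) and featureCounts (2.0.6) on hg38 and mm10. The sources used here do not give strandedness, annotation release or the handling of reads matching both species, so mouse reads of conserved sequence may sit on human genes. Columns were matched to samples by group and replicate number.

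Human genes passing filterByExpr (15435, with 99.8% of human counts) were TMM-scaled and fitted with edgeR's quasi-likelihood test (edgeR 4.0.16, R 4.3.3) over all 15 libraries. Changed means a Benjamini-Hochberg adjusted p under 0.05 over all tested genes. P-values measure the spread between tumours, 1 library each. Symbols came from the reference gene table, and exon lengths and coordinates from GENCODE 29 (same build). Of the 60649 human genes, 58337 were found there by identifier without version and 37288 with the same version. The release used for counting may therefore differ, and the lengths with it. Named genes are all members, up to 4 called genes per list and comparison by smallest p, isoenzymes of members, and the 5 genes most correlated with NNMT (log2 CPM, prior count 2). The other genes named (PARP9, PARP10, PARP12, DNMT1, DNMT3B, EZH2, NSD1, PRMT5, MTAP, KYNU, IDO1, SHMT1, DCN, PLIN1, ISG15 and MKI67) were chosen after their values were seen. Members and lists were chosen with earlier results of these data known. The fit was tested on simulated data. Same-numbered tumours of different groups did not deviate together, so the replicate number was not used in the fit. The alternatives included DESeq2 (1.42.0). The values of 1 called gene of the folate list are not reported here.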

Additional observations from a re-analysis of the deposited data

Results flagged for a closer look

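Among the 27 groups of 5 values (9 members in 3 groups), 3 held a tumour far from the other 4, where chance alone flags about 5% of groups. NMNAT1 was 6.04 CPM in no-stress replicate 1, which also had the highest mouse share, against 10.2 to 10.5 CPM in the other no-stress tumours. SIRT1 was 58.0 CPM in post-stress replicate 2, against 43.5 to 45.8 CPM in the other post-stress tumours. MAT2B was 82.7 CPM in post-stress replicate 3, against 64.1 to 69.3 CPM in the others.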

How the results depend on the processing

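As a description, since the members were selected on these values, 1 member passed for stress and 1 for post-stress against no stress. For stress it was 2 without the filter on low counts (with NAMPT), 2 with the replicate block (with SIRT1) and 3 with DESeq2's Wald test. Leaving out single tumours gave 1 to 2 members for stress, 1 to 1 for post-stress and 0 to 0 for stress against post-stress, where the Wald test gave 1. The number of changed human genes for stress was 1613, with 990 under the replicate block, 546 without no-stress replicates 1 and 5, and 661 to 1834 without single tumours. For post-stress it was 130, with 49 when only the compared groups were fitted, 57 under the replicate block, 38 with the mouse share as a covariate, 32 without no-stress replicates 1 and 5, 504 with the Wald test, and 37 to 144 without single tumours. Of the 130 genes 70.8% were higher, and 48.8% of those called with plain library sizes. For stress against post-stress it was 6, with 36 without the filter, 1 with only the compared groups, 0 under the replicate block, 0 with the mouse share, 203 with the Wald test and 0 to 189 without single tumours. Of the other pathway genes 25 changed under stress, 13 under the replicate block, 5 without no-stress replicates 1 and 5, and 9 to 27 without single tumours. Under post-stress 1 changed, with 2 under DESeq2 size factors, 2 without the filter, 0 with the mouse share, 0 without no-stress replicates 1 and 5, 3 with the Wald test and 0 to 2 without single tumours. For stress against post-stress 0 changed, with 1 without the filter, 5 with the Wald test and 0 to 6 without single tumours. The cause of these shifts was not tested. Same-numbered tumours correlated between −0.19 and 0.12 in their deviations from group means, so no pairing by number was seen. What the losses under the replicate block reflect was not tested. Values near 1 CPM, such as those of NAPRT in post-stress tumours, rest on few counts, and the lowest NAPRT count of any library was 7.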

Other observations

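SHMT1, the cytosolic serine hydroxymethyltransferase of folate metabolism, was as uneven between tumours as NAPRT. It was named after its values were seen. It stood at 1.81, 15.6, 1.55, 1.69 and 2.33 CPM in stress tumours, at 1.17, 1.64, 0.771, 1.22 and 0.784 CPM in post-stress tumours, and at 3.23, 15.9, 5.02, 11.4 and 8.92 CPM in no-stress tumours. Every post-stress tumour lay below every no-stress tumour, and 4 of the 5 stress tumours did as well, while stress replicate 2 was as high as the highest no-stress tumour. Neither comparison passed (log2 fold change −2.98, SE 0.72, adjusted p = 0.0728 for post-stress, and −0.95, SE 0.64, adjusted p = 0.377 for stress). The tumours high in SHMT1 were not those high in NAPRT, whose highest values were in stress replicates 1, 3 and 5 and no-stress replicates 1 and 3.

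KYNU, the kynureninase of the tryptophan route, was at 74.9 CPM per kb over all tumours, more than any other gene of NAD synthesis besides NAMPT, although QPRT at the end of that route had 5 counts. It averaged 1311 ± 172 CPM under stress, 1317 ± 53.4 CPM under post-stress and 1324 ± 112 CPM without stress. IDO1, the interferon-induced enzyme at the start of the route, had 141 counts in all and averaged 1.21 ± 0.558 CPM under stress, 0.272 ± 0.197 CPM under post-stress and 0.506 ± 0.667 CPM without stress (adjusted p = 0.274 for stress and 0.660 for post-stress).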
